A study of Mus musculus with 47 samples.

Results

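Reactive astrocyte genes, 10 genes that astrocytes raise after injury, were followed in the cerebral cortex of 47 mice: Gfap, Vim, Osmr, S1pr3, Cd44, Serpina3n, Timp1, Lcn2, Cp and Steap4. They were taken by gene symbol, 10 of the 48795 rows of the count table, with no cut on expression. Earlier results of these data were known when they were chosen. All mice were 6 months old on a C57BL background, and each library was 1 mouse. The groups were wild type (WT, n = 8), Ccdc82+/- (n = 8), Ccdc82-/- (n = 8), heterozygous Q140 knock-in (n = 8), Q140 x Ccdc82+/- (n = 8) and Q140 x Ccdc82-/- (n = 7), with 23 females and 24 males in all. Q140 carries an expanded CAG repeat in Htt, the Huntington's disease gene, knocked into the gene's own locus and so not limited to 1 cell type, and Ccdc82 encodes a coiled-coil protein. The crosses ask what the Q140 allele and the loss of Ccdc82 each do to cortical RNA, and whether one changes the other.

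Astrocytes support neurons by clearing glutamate and buffering potassium. After injury, infection or neurodegeneration they enlarge, build more intermediate filament and secrete protease inhibitors, iron-binding proteins and matrix regulators, a state called reactive gliosis. IL-6 family cytokines acting through STAT3 are a main trigger. Gfap is also high without injury in the astrocytes that line the brain surface, the glia limitans, which lie directly under the meninges.

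Library totals ran from 43554594 to 61370843 counts, with a median of 50473683. Ccdc82 itself was 16.2 ± 1.58 CPM (counts scaled to the library total with TMM factors; SD, n = 8) in WT, 10.9 ± 0.962 (n = 8) in Ccdc82+/- and 5.32 ± 0.595 (n = 8) in Ccdc82-/-, in the order of the labels but not 0 in the homozygotes. Astrocyte RNA was present in this mixed tissue: 18 of 18 homeostatic astrocyte markers were detected, with a summed level between 10100 and 12200 CPM. The 9 neuron markers summed to 11400 to 12500 CPM in mice with Q140 and to 12100 to 12900 CPM in mice without. In bulk tissue, fewer cells of a type and less RNA per cell cannot be told apart.

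Levels of the 10 genes spanned a wide range. Compared per length, as FPKM (mean ± SD over 47 mice), Gfap stood highest at 15.5 ± 2.09 and above 81.7% of the tested genes. Serpina3n at 4.94 ± 0.717 and Vim at 4.81 ± 0.652 followed and did not differ beyond their spread. S1pr3 reached 2.29 ± 0.234 and Cp 1.49 ± 0.188. Below these lay Osmr at 0.318 ± 0.0409 and Timp1 at 0.239 ± 0.112, which overlapped, then Cd44 at 0.142 ± 0.0269 and Steap4 at 0.0785 ± 0.0345 FPKM. Lcn2 was lowest at 0.0196 ± 0.0191 FPKM, with 121 counts in all mice together and 0 counts in 12 of 47 libraries. It was the 1 member that failed the filter on low counts, so 9 of 10 members were tested across genes.

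**Figure D1:**
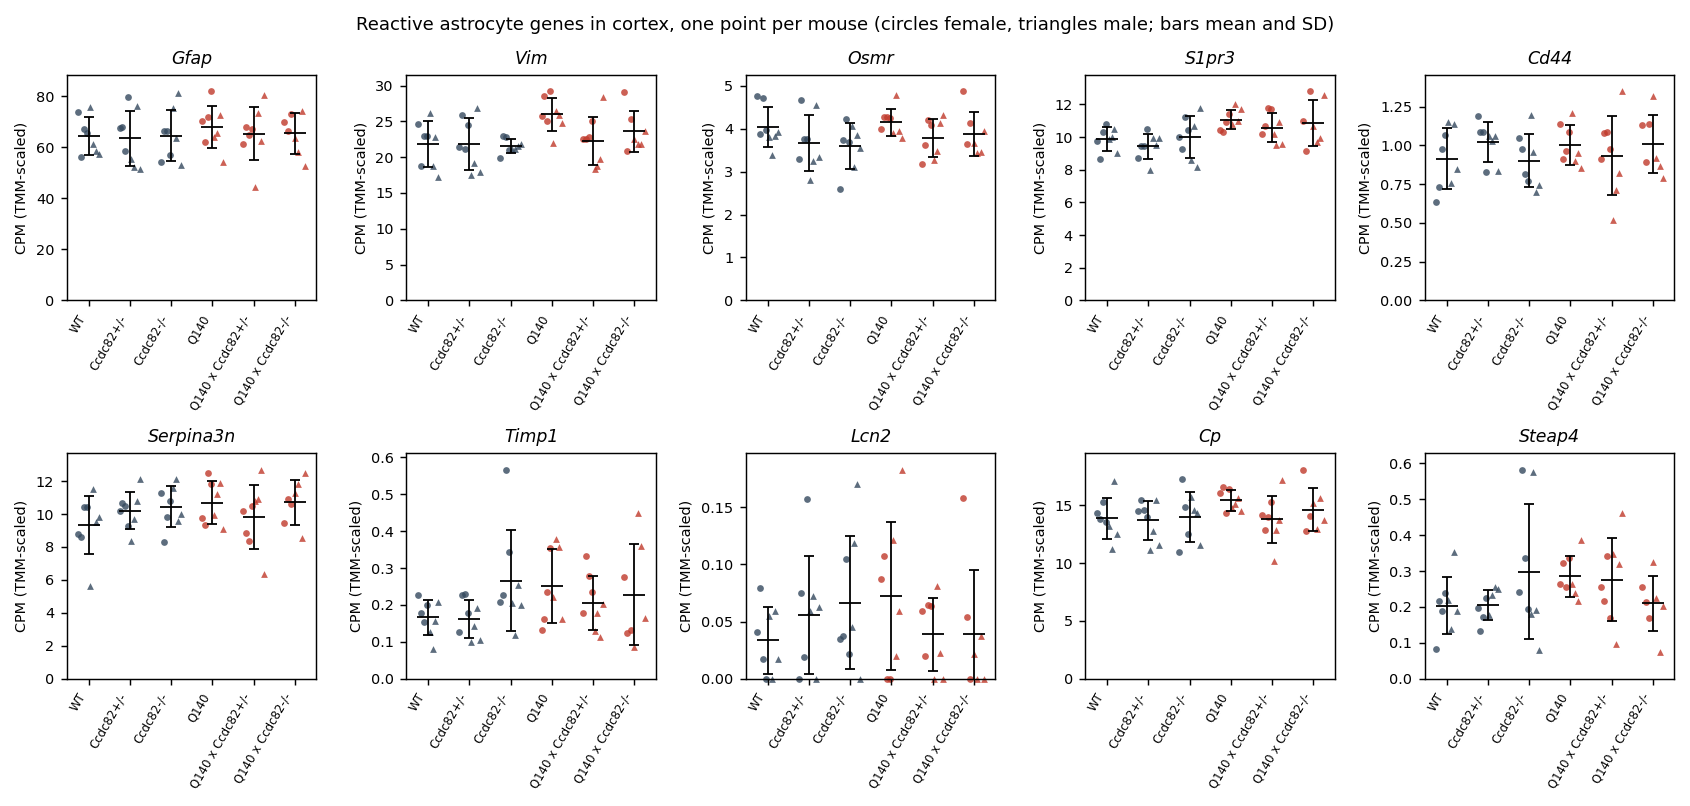
CPM of each gene (vertical axis, linear from 0) by genotype (horizontal axis), 1 point per mouse, circles female and triangles male, grey without and red with Q140, with bars for mean and SD. The groups overlap in every panel, and S1pr3 shows the Q140 groups lying slightly higher.

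Across the 3 Ccdc82 genotypes together, Q140 mice had more S1pr3 RNA and no other called change among the 9 tested members. All 9 fitted log2 changes were above 0, against 51% of all genes, but they were small, with a median of 0.08 on the log2 scale beside 9e-04 for all genes. In the same comparison 12 of 12 meningeal fibroblast markers were above 0, with a median of 0.15. In the same comparison 168 of 19174 genes passed an adjusted p of 0.05 in edgeR's quasi-likelihood test, a background of 0.876%, and 1 of 9 members did. On the single Ccdc82 genotypes 0 of 9 members were called, beside backgrounds of 0.0313% for Q140 against WT, 0.0313% on Ccdc82+/- and 0.0209% on Ccdc82-/-; DESeq2 called 0 of them against WT as well. The members with a log2 change above 0 numbered 9 of 9 against WT (50.6% of all genes), 7 of 9 on Ccdc82+/- (50.4%) and 7 of 9 on Ccdc82-/- (50.4%), and those at an unadjusted p under 0.05 numbered 3, 1 and 0 (6.93%, 5.18% and 4.17% of all genes). In the pooled comparison 2 of 9 members had an unadjusted p under 0.05, against 9.18% of all genes.

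S1pr3, a G protein-coupled receptor for sphingosine 1-phosphate (ENSMUSG00000067586, chromosome 13, 51408639 to 51422797, GRCm38), was the gene that rose. Its level without Q140 ran from 8.64 through a median of 9.95 to 10.8 CPM in WT, from 8.01 through 9.49 to 10.5 in Ccdc82+/- and from 8.17 through 10.2 to 11.8 in Ccdc82-/-. With Q140 it ran from 10.3 through 10.9 to 12 CPM on the WT Ccdc82 genotype, from 9.54 through 10.5 to 11.8 on Ccdc82+/- and from 9.14 through 10.7 to 12.8 on Ccdc82-/-. Each Q140 group overlapped its control, yet 21 of 23 Q140 mice exceeded the mean of the controls of their own sex and Ccdc82 genotype. In WT the mean was 9.87 ± 0.728 CPM (SD, n = 8), and in Q140 it was 11.1 ± 0.602 CPM (SD, n = 8).

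The pooled S1pr3 change was 0.15 on the log2 scale (SE 0.0385, 95% interval 0.07 to 0.23, edgeR adjusted p = 0.0407), a 1.11-fold level. Taken on each Ccdc82 genotype alone it was 0.17 on WT, 0.16 on Ccdc82+/- and 0.12 on Ccdc82-/-, with edgeR adjusted p of 0.573, 0.907 and 1. The call sat close to the threshold: with the library's plate column added to the fit the adjusted p was 0.0863 at a log2 change of 0.14, and leaving out 1 library at a time gave adjusted p from 0.0154 to 0.0831, above the threshold for 21 of 47 libraries. The size of the change moved little, between 0.13 and 0.16, in those 47 fits.

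Vim, the intermediate filament protein that astrocytes share with endothelial and mesenchymal cells (ENSMUSG00000026728, chromosome 2, 13573927 to 13582826), did not pass the test. In WT it ran from 17.2 through a median of 22.9 to 26.2 CPM, and in Q140 from 22 through 25.9 to 29.2 CPM. All 8 Q140 mice exceeded the mean of WT mice of their sex, while on Ccdc82+/- 2 of 8 did and on Ccdc82-/- 6 of 7. The log2 change was 0.25 (SE 0.0843, edgeR adjusted p = 0.425) for Q140 against WT and 0.14 (SE 0.0495, edgeR adjusted p = 0.249) pooled. Summed meningeal fibroblast markers, which varied with Vim from mouse to mouse, had a median of 141 CPM in Q140 and 122 CPM in WT.

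Gfap, the filament protein that defines the reactive astrocyte (ENSMUSG00000020932, chromosome 11, 102887336 to 102900912), had overlapping levels in all 6 genotypes. Its mean was 64.6 ± 7.48 CPM (SD, n = 8) in WT, 63.7 ± 10.8 (n = 8) in Ccdc82+/-, 64.6 ± 10 (n = 8) in Ccdc82-/-, 67.9 ± 8.29 (n = 8) in Q140, 65.3 ± 10.4 (n = 8) in Q140 x Ccdc82+/- and 65.5 ± 7.87 (n = 7) in Q140 x Ccdc82-/-. The pooled log2 change of 0.04 had a 95% interval from -0.08 to 0.17 (edgeR adjusted p = 0.901), so the interval ended at a 1.12-fold level.

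Among the other receptors, Osmr, the oncostatin M receptor subunit, ran from 3.39 to 4.77 CPM in WT and from 3.79 to 4.78 in Q140, and its pooled log2 change was 0.07 (edgeR adjusted p = 0.774). Cd44, the hyaluronan receptor, ran from 0.637 to 1.15 CPM in WT and from 0.855 to 1.21 in Q140, with a pooled log2 change of 0.05 (edgeR adjusted p = 0.924). Neither separated the genotypes.

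Of the secreted proteins, Serpina3n, a serine protease inhibitor, ran from 5.66 through 9.65 to 11.5 CPM in WT and from 9.1 through 10.6 to 12.5 CPM in Q140. Its pooled log2 change was 0.06 (SE 0.0638, edgeR adjusted p = 0.864). The 2 lowest of the 47 mice, WT male 1 at 5.66 CPM and Q140 x Ccdc82+/- male 4 at 6.33 CPM, lay in different genotypes. Other Serpina3 genes, taken by symbol, were at most 0.0406 CPM, against 10.2 CPM for Serpina3n. These counts do not show how reads that match more than 1 of these genes were assigned.

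Timp1, an inhibitor of matrix metalloproteinases, rested on 4 to 27 counts per library. It ran from 0.0798 through 0.168 to 0.226 CPM in WT and from 0.132 through 0.229 to 0.38 CPM in Q140, and 4 of 8 Q140 mice exceeded all WT mice. The log2 change was 0.60 (SE 0.293, edgeR adjusted p = 0.711) for Q140 against WT and 0.65 (SE 0.292, edgeR adjusted p = 0.999) for Ccdc82-/- against WT. On Ccdc82+/- the Q140 change was 0.34 and on Ccdc82-/- it was -0.19, where 0 of 7 Q140 mice exceeded all controls, and the pooled change was 0.25 (SE 0.172, edgeR adjusted p = 0.725). Timp1 lies on the X chromosome inside Syn1, a neuronal gene of the opposite strand at 738 CPM, and the pair shares 0 exonic bases.

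Lcn2, the iron-siderophore binding protein that rises steeply in severe inflammation, was at the limit of detection. The mean was 0.0505 ± 0.053 CPM (SD, n = 23) with Q140 and 0.052 ± 0.0479 (n = 24) without, from 59 and 62 counts (permutation test within Ccdc82 genotype and sex, two-sided, 100000 resamples, p = 0.923). A count of 3 corresponded to 0.0489 to 0.0689 CPM depending on the library, near or above both means, so single mice could not be told apart.

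The metal-handling genes did not pass the test either. Cp, the copper ferroxidase ceruloplasmin, ran from 11.2 through 13.7 to 17.1 CPM in WT and from 14.3 through 15.3 to 16.6 CPM in Q140, and 8 of 8 Q140 mice lay above the mean of WT mice of their sex. Its log2 change was 0.16 (SE 0.087, edgeR adjusted p = 0.776) against WT and 0.08 pooled. Steap4, a metalloreductase, ran from 4 to 31 counts per library. Its log2 change was 0.48 for Q140 against WT and -0.53 for Q140 x Ccdc82-/- against Ccdc82-/-, and the interaction of -1.02 (SE 0.417) had an unadjusted edgeR p of 0.0186 and an adjusted p of 1. In Ccdc82-/- the median was 0.217 CPM, near the 0.204 CPM of WT, and the mean of 0.298 CPM rested on female 2 at 0.583 and male 2 at 0.577 CPM. The pooled Q140 change was 0.12 (edgeR adjusted p = 0.907). Steap4 is on chromosome 5, the chromosome of Htt, 26.8 Mb away from it.

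**Figure D2:**
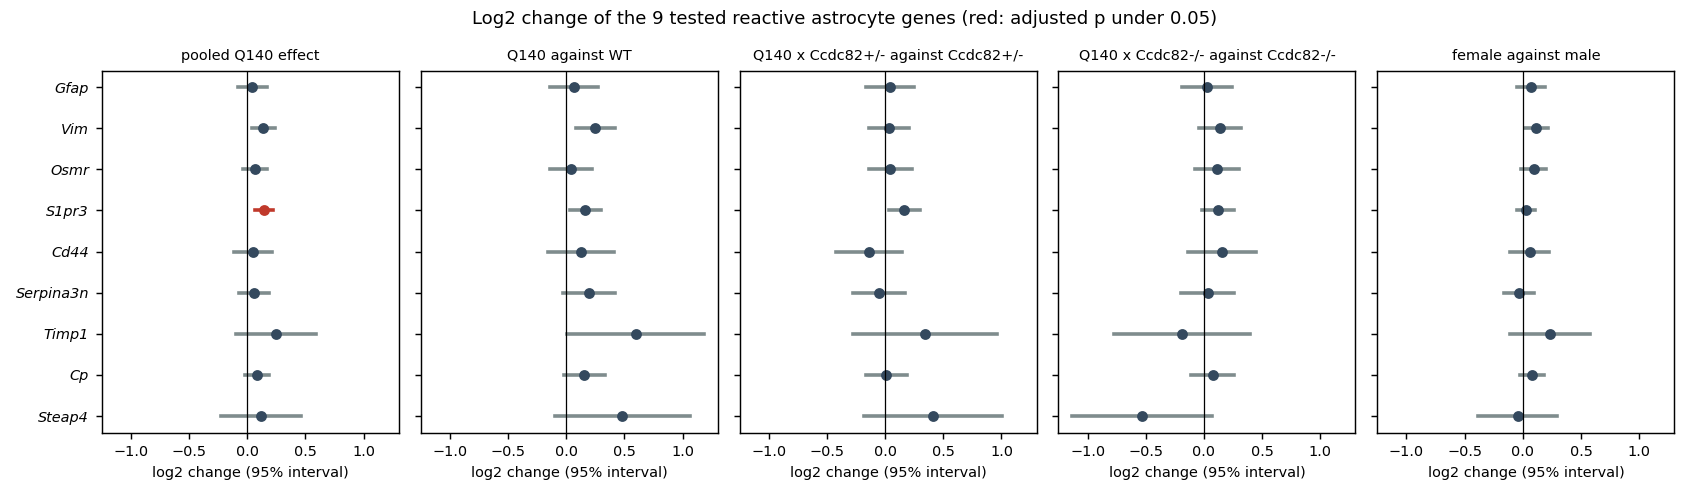
Log2 change (horizontal axis) with its 95% interval for the 9 tested genes (rows) in 5 comparisons (panels), red where the adjusted p was under 0.05. Only S1pr3 in the pooled Q140 comparison is red, at 0.15.

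Loss of Ccdc82 alone called none of the members. In each of Ccdc82+/- against WT and Ccdc82-/- against WT the edgeR test called 1 of 19174 genes, Ccdc82 itself, a background of 0.00522%, and 0 of 9 members; DESeq2 also called 1 gene in each. At an unadjusted p under 0.05 the members numbered 0 and 1 (3.6% and 3.23% of all genes), the latter being Timp1. Pooled over mice with and without Q140, each Ccdc82 effect again called 1 gene (0.00522%) and 0 members, and Osmr had the lowest p, at a log2 change of -0.13 in Ccdc82+/- (unadjusted p = 0.0391, edgeR adjusted p = 0.905). The interval for Gfap in Ccdc82-/- against WT ran from -0.21 to 0.21 on the log2 scale.

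Among Q140 mice, the members' fitted values were mostly lower where Ccdc82 was lost, but none passed the test. All 9 log2 changes were below 0 in Q140 x Ccdc82+/- against Q140, with a median of -0.12 (49.8% of all genes were above 0), and 8 of 9 were below 0 in Q140 x Ccdc82-/- against Q140, with a median of -0.07 (48.9% above 0). Beside them, 0 of 12 meningeal fibroblast markers were above 0 in either comparison, with medians of -0.41 and -0.11, and 10 and 0 of the 12 had an unadjusted p under 0.05; 0 were called, and their part in the result was not tested in these comparisons. The background of calls was 0.00522% in each, and 1 and 0 members had an unadjusted p under 0.05 (5.42% and 4.09% of all genes). The lowest unadjusted p was that of Vim, at a log2 change of -0.22 (SE 0.0845, unadjusted p = 0.011, edgeR adjusted p = 0.921). These comparisons share the Q140 mice with the comparison against WT, in which the same genes were above 0. The interaction terms called 0 genes of 19174 in edgeR and 0 in DESeq2, with 3.52% and 2.96% of genes at an unadjusted p under 0.05 and 0 and 1 of 9 members.

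No member was called between females and males. The sex comparison called 2018 genes, a background of 10.5%, while 0 of 9 members were called in edgeR and 0 in DESeq2, and 1 of 9 had an unadjusted p under 0.05 (26% of all genes). Vim came nearest, at 23.7 ± 2.8 CPM (SD, n = 23) in females and 21.9 ± 3.22 (n = 24) in males, a log2 difference of 0.12 (edgeR adjusted p = 0.12). Meningeal fibroblast markers were above 0 in 12 of 12 there, with a median of 0.16 and 1 called (Igfbp2), and with their mean as a covariate the Vim difference was 0.04 (edgeR adjusted p = 0.517). It passed the threshold in 2 of 47 fits with 1 library left out, those without Ccdc82+/- male 3 (adjusted p = 0.0467) and without Q140 x Ccdc82+/- male 4 (adjusted p = 0.0401). The difference of the Q140 effect between the sexes called 0 genes in edgeR and 0 in DESeq2, with 4.01% of genes and 0 of 9 members at an unadjusted p under 0.05.

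The wider pathways show where other genes moved, in the pooled Q140 comparison. Of 13 genes of sphingosine 1-phosphate metabolism and receptors, 1 rose (S1pr3) and 1 fell, against 0.339% of all genes called higher and 0.537% called lower. Plpp3, a phosphatase of lipid phosphates, fell by 0.09 on the log2 scale (edgeR adjusted p = 0.0138). Of 19 tested genes of CD44 ligands and matrix, 1 rose and 1 fell, beside the same background. Rdx, which links CD44 to actin, rose by 0.06 (edgeR adjusted p = 0.00813), and Hapln4, a hyaluronan link protein of perineuronal nets, fell by 0.09 (edgeR adjusted p = 0.0349).

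In the remaining pathway lists no gene was called in the pooled Q140 comparison, in which 0.876% of all genes were called and 51% were above 0. These were 23 tested further injury-induced astrocyte genes (18 above 0, median 0.04), 20 genes of IL-6 family and JAK-STAT3 signalling (9 above 0, median -0.01), 13 intermediate filament genes, 19 of iron and copper handling, 17 metalloproteinases and their inhibitors, and 9 serpins. Nearest to a call among the injury-induced genes was Cd109, at a log2 change of 0.41 (SE 0.128, edgeR adjusted p = 0.142).

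Some genes of the resting astrocyte fell. Of 18 homeostatic astrocyte markers 4 fell and 0 rose in the pooled Q140 comparison, against 0.537% of all genes called lower, and the list's median log2 change was -0.06. Kcnj10, the inward rectifier potassium channel Kir4.1, fell by 0.14 (SE 0.0239, edgeR adjusted p = 0.000641). Glul, glutamine synthetase, fell by 0.11 (edgeR adjusted p = 2.15e-05), Aldoc, an astrocytic glycolytic enzyme, by 0.10 (edgeR adjusted p = 0.00657) and Slc1a2, the glutamate transporter GLT-1, by 0.08 (edgeR adjusted p = 0.0123). The summed marker level had a median of 10500 CPM with Q140 and 11200 CPM without.

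Some of these genes varied widely between mice of the same genotype and sex. The SD of log2 CPM about the genotype-by-sex mean exceeded that of 98.4% of genes of similar level for Gfap, 97.1% for Serpina3n, 96.4% for Vim and 95.2% for Cp, and of 82.8% for Steap4, 78.7% for S1pr3, 71.3% for Osmr, 52% for Cd44 and 43.4% for Timp1.

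Vim, Osmr, Cp and Gfap varied together from mouse to mouse. Of 45 pairs of members, 8 had a correlation with an adjusted permutation p under 0.05 (log2 CPM less genotype-by-sex means, n = 47, 100000 permutations within genotype and sex); both values of a pair come from 1 library and share its scaling. Vim correlated with Cp at Pearson r = 0.656 (Spearman rho 0.639, permutation p = 0.00018, adjusted 0.0027; r = 0.552 without the 2 mice farthest from the median of Vim). Vim with Osmr gave r = 0.647 (rho 0.675, permutation p = 1e-05, the smallest the permutations can give, adjusted 0.00045; r = 0.57 without 2 mice). Gfap with Vim gave r = 0.559 (rho 0.489, permutation p = 0.00061, adjusted 0.00686; r = 0.47 without 2 mice).

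Serpina3n and S1pr3 had no such correlation with any other member. The correlation of Serpina3n with Gfap was -0.318 (permutation p = 0.131, adjusted 0.31) and with Vim -0.402 (permutation p = 0.0648, adjusted 0.188). The r of S1pr3 with Gfap was -0.178 (permutation p = 0.314, adjusted 0.505).

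**Figure D3:**
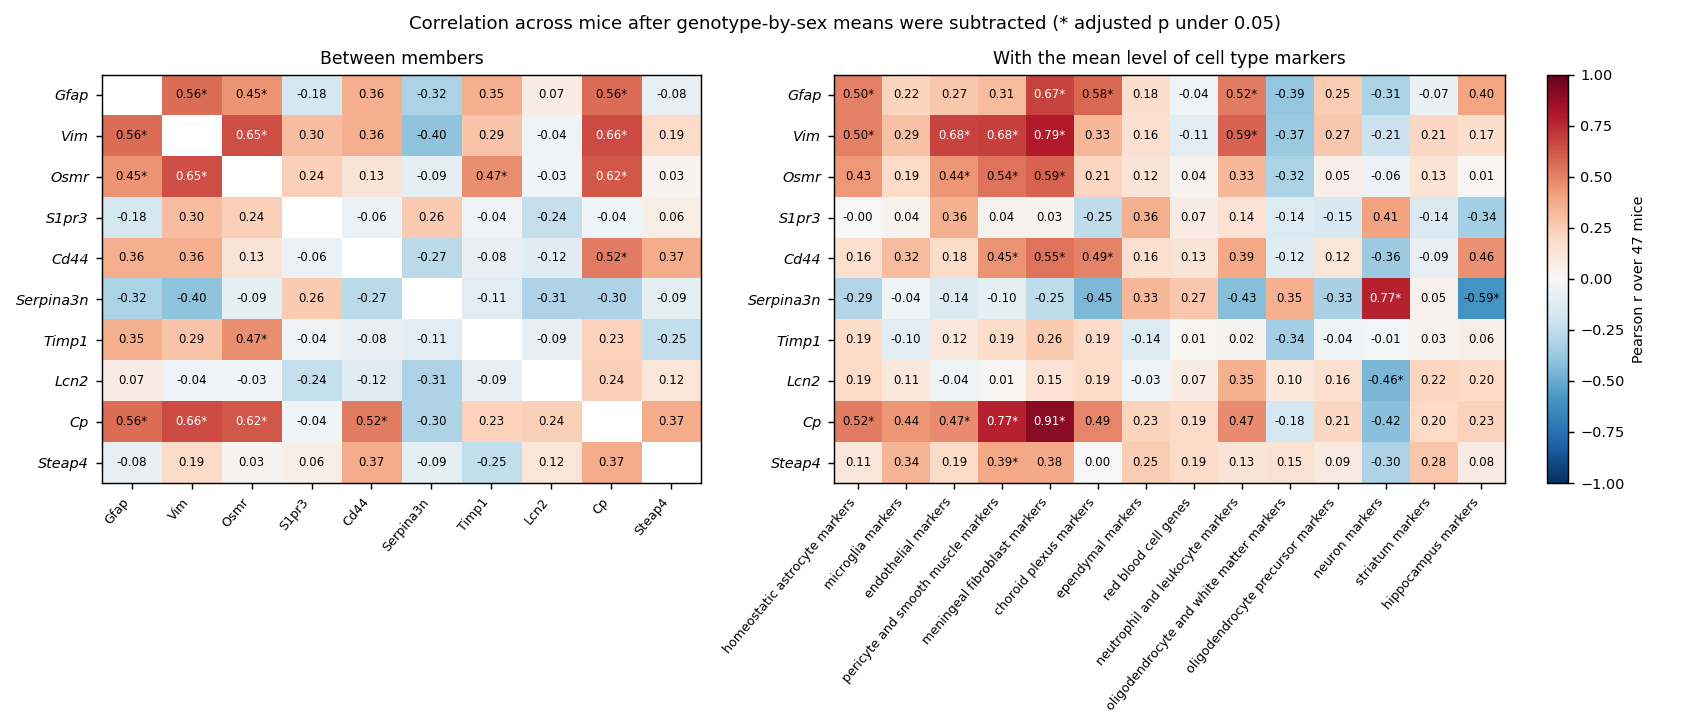
Pearson r over 47 mice after genotype-by-sex means were subtracted, between members (left) and with the mean level of 14 cell type marker lists (right), red positive and blue negative, with a star where the adjusted permutation p was under 0.05. Vim, Osmr, Cp and Gfap form a positive block that also runs down the meningeal fibroblast column, where Cp reaches 0.905, while Serpina3n is blue there and red under neuron markers.

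Cp, Vim, Gfap, Osmr and Cd44 varied with the markers of the meninges. Of 140 pairs of a member with a cell type list, 23 had an adjusted permutation p under 0.05. The mean level of 12 meningeal fibroblast markers, among them collagens, Dcn, Lum and Igf2, correlated with Cp at r = 0.905 (rho 0.89, permutation p = 1e-05, adjusted 0.00035; r = 0.883 without the 2 mice farthest from the median) and with Vim at r = 0.79 (rho 0.773, permutation p = 1e-05, adjusted 0.00035; r = 0.711 without 2 mice). Gfap gave r = 0.672 (rho 0.578, permutation p = 0.00016, adjusted 0.00373; r = 0.588 without 2 mice), Osmr r = 0.593 (permutation p = 0.00034, adjusted 0.00591) and Cd44 r = 0.545 (permutation p = 0.00315, adjusted 0.0264).

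Markers of other cells varied with some members too. Homeostatic astrocyte markers correlated with Gfap at r = 0.501 (rho 0.457, permutation p = 0.00389, adjusted 0.0264; r = 0.485 without 2 mice), and with Vim at 0.5 and Cp at 0.518. Pericyte and smooth muscle markers correlated with Cp at r = 0.769 (rho 0.727, permutation p = 1e-05, adjusted 0.00035; r = 0.726 without 2 mice) with Vim at 0.68 (permutation adjusted p = 0.00591), and with Osmr, Cd44 and Steap4 at 0.541, 0.447 and 0.386. Endothelial markers correlated with Vim at r = 0.676 (rho 0.687, permutation p = 0.00011, adjusted 0.00308), with Cp at 0.471 and with Osmr at 0.438. Choroid plexus markers gave 0.577 with Gfap (permutation adjusted p = 0.0084) and 0.494 with Cd44. The neutrophil and leukocyte list gave 0.588 with Vim and 0.517 with Gfap (permutation adjusted p = 0.00742 and 0.0112). Its mean held only Ptprc and Itgb2, the 2 of its 9 markers that passed the filter on low counts, so it does not report on neutrophil genes such as Ly6g, Ngp and Camp. Whether these r values differ was not tested.

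Serpina3n varied with neuron markers. Its r with 9 neuron markers was 0.77 (rho 0.75, permutation p = 1e-05, adjusted 0.00035; r = 0.731 without 2 mice) and with 6 hippocampus markers -0.595 (rho -0.543, permutation p = 0.00038, adjusted 0.00591). Lcn2 gave r = -0.456 with the neuron markers (permutation p = 0.00239, adjusted 0.0239). That value rests on 0 to 9 Lcn2 counts per library, with 0 counts in 12 of 47, at the limit of detection. The neuron marker mean itself varied little, with an SD of 0.0281 on the log2 scale against 0.213 for Serpina3n. S1pr3 reached an adjusted p under 0.05 with none of the 14 lists, but lay at that threshold with the neuron markers. Its r there was 0.406, its highest (rho 0.391, permutation p = 0.00857, adjusted 0.05). With endothelial markers it was 0.358 (permutation p = 0.0229, adjusted 0.0931) and with meningeal markers 0.0341 (permutation p = 0.858).

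**Figure D4:**
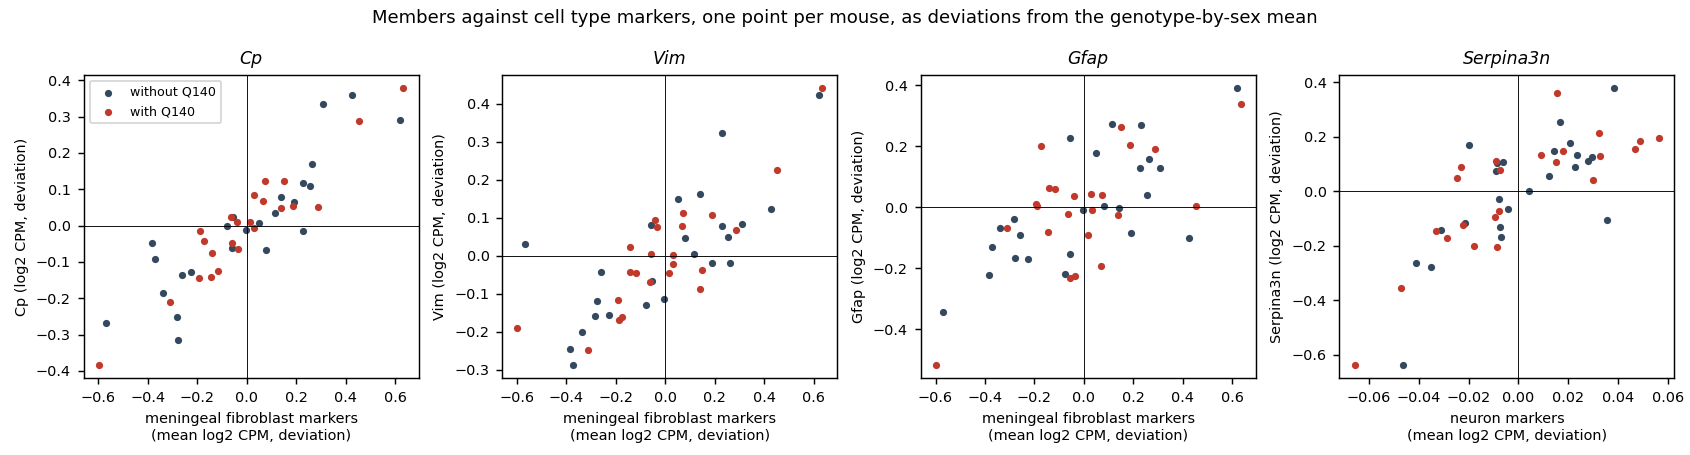
Log2 CPM of Cp, Vim, Gfap and Serpina3n (vertical axes) against the mean log2 CPM of meningeal fibroblast or neuron markers (horizontal axes), both as deviations from the genotype-by-sex mean, 1 point per mouse, red with and dark without Q140. Cp lies closest to a line (r = 0.905), and the Serpina3n panel shows the 2 mice with the lowest values at the lower left.

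The genes most like Gfap over the 47 mice, among 19173 others, were Myoc (r = 0.8), Ptgds (0.765), Kcnj13 (0.763), Ogn (0.757) and Nrp2 (0.754), given as a description. Ptgds, prostaglandin D synthase, and Ogn, osteoglycin, are abundant in the meninges; Ogn is also 1 of the 12 meningeal markers and Kcnj13 belongs to the choroid plexus list. Vim ranked 142 among genes like Gfap. Those most like Serpina3n were Prkcb (0.845), Oxr1 (0.837), Pkm (0.833), Ywhag (0.83) and Epdr1 (0.821), of which Prkcb, a protein kinase C, and Ywhag, a 14-3-3 protein, are abundant in neurons. Gfap ranked 17015 in that order.

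Meningeal marker levels overlapped between all 6 genotypes. Their summed level had a median of 122 CPM in WT (88.1 to 144), 141 in Q140 (118 to 163), 124 in Ccdc82+/- (81.7 to 139), 112 in Q140 x Ccdc82+/- (64.7 to 143), 126 in Ccdc82-/- (77.7 to 143) and 126 in Q140 x Ccdc82-/- (107 to 162). All 12 had a log2 change above 0 in Q140 against WT (50.6% of all genes), with a median log2 change of 0.36. Of the 12, 6 had an unadjusted p under 0.05 (6.93% of all genes) and 0 passed the edgeR test (0.0313% of all genes). No marker of the list was at 0 in all libraries of a group.

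With the meningeal marker mean as a covariate, a setting added after the data were seen, the log2 change of Q140 against WT went from 0.25 to 0.11 for Vim, from 0.16 to -0.02 for Cp and from 0.07 to -0.08 for Gfap. The meningeal markers themselves had higher fitted values in Q140 than in WT, as given above, though none was called. Their mean correlated with Cp at r = 0.905, with Vim at 0.79 and with Gfap at 0.672. The shifts of Vim, Cp and Gfap with this covariate are therefore not independent of that difference. S1pr3 was 0.17 without and 0.16 with the covariate. In the pooled comparison S1pr3 was 0.15 with the covariate, at an edgeR adjusted p of 0.0704. With the homeostatic astrocyte marker mean as the covariate instead, also added after the data were seen, Vim was called in the pooled comparison. Its log2 change was 0.22 (edgeR adjusted p = 0.0103), and S1pr3 was at 0.15 (edgeR adjusted p = 0.0757). Kcnj10, Glul, Aldoc and Slc1a2 of this covariate were themselves called lower with Q140, and the covariate correlated with Vim at r = 0.5. The Vim call with it is therefore not independent of that fall.

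Promoters of the members were read for the STAT motif TTCNNNGAA, the site class of the IL-6 family pathway. RefSeq start sites on GRCm38.p6 were matched for 10 of 10 members. The motif, which reads the same on both strands, was within 250 bases before to 50 after the start in 2 of 10 members, Gfap and Steap4, and in 9.55% of all genes. The AP-1 motif TGANTCA was in Osmr and Cp, and in 8.97% of all genes. Both STAT matches are shown in capitals beside the promoter of S1pr3, the gene that rose, which holds neither motif. Each runs 5′ to 3′ on the gene's strand, from 250 bases before to 25 after the start, at chr11:102897176-102897450 (minus strand) for Gfap, chr5:7960222-7960496 (plus strand) for Steap4 and chr13:51408368-51408642 (plus strand) for S1pr3.
Gfap promoter: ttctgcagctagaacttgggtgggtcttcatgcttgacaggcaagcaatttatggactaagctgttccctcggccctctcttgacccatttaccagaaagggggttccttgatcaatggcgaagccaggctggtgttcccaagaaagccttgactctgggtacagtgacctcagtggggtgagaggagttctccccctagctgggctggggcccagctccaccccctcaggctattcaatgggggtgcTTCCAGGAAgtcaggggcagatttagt
Steap4 promoter: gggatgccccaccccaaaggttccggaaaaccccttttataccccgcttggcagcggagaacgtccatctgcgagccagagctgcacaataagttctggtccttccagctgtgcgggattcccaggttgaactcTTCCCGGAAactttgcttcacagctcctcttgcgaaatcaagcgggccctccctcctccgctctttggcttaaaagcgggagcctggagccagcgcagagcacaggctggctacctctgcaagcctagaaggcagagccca
S1pr3 promoter: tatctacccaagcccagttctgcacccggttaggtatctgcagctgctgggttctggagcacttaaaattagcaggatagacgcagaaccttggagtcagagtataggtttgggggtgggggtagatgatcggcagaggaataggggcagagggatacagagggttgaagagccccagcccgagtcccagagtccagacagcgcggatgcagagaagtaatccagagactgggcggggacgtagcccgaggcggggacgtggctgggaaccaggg
The Gfap match begins 2 bases before the start site and that of Steap4 116 bases before it. A match is a description of letters and shows no binding. Gfap and Steap4, which share it, correlated at r = -0.0809 over the mice (permutation p = 0.703, adjusted 0.833).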

How the data were processed

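RNA from the cerebral cortex of 47 mice was sequenced from stranded TruSeq libraries, per the labels' protocols. The authors deposited raw counts per gene and an FPKM value for each. Alignment and counting tools were, per the submitters' processing notes, STAR (2.7.5c), SAMtools (1.10) and HTSeq (0.12.3) on GRCm38. No annotation release or strand setting is named there. Whether strand was used to tell their reads from those of antisense neighbours (Syn1 for Timp1, Hps3 for Cp) is therefore not known. Timp1 shares 0 exonic bases with Syn1, and Cp shares 108 of its 9566 exonic bases with Hps3.

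Counts were filtered with filterByExpr (minimum count 10, minimum total 15), which kept 19174 of 48795 genes, scaled by TMM and fitted with edgeR 4.0.16 (quasi-likelihood, robust) on genotype and sex, with all 47 libraries in 1 fit and Benjamini-Hochberg adjustment over all tested genes. CPM values use TMM factors, log2 CPM a prior count of 2. FPKM served levels between genes and a log2(FPKM + 0.1) alternative in limma 3.58.1. DESeq2 1.42.0 and sva 3.50.0 were further alternatives. Coordinates are GENCODE M21, promoters RefSeq. Replicate pairs within groups (161) differed by a chi-square of 3.73 to 22.7 per gene, so none was a duplicate. The fit was tested on simulated data whose planted changes were larger than the S1pr3 change. It does not show how well changes as small as that of S1pr3 are recovered.

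The members and gene lists were chosen with earlier results of these data known. All 10 members are named in every comparison treated singly; of each list up to 4 called genes, otherwise those with the smallest p; and the 5 genes most like Gfap and Serpina3n. The titles number mice within genotype and sex; nothing in the labels says these numbers pair animals.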

Additional observations from a re-analysis of the deposited data

Results flagged for a closer look

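Of 60 groups examined (10 genes in 6 genotypes), 1 held a mouse far from the others, and chance flags about 1 in 20 groups. Lcn2 in Q140 x Ccdc82-/- reached 0.158 CPM in female 1, from 8 counts, while the next mouse was at 0.0538 CPM.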

How the results depend on the processing

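The S1pr3 call in the pooled Q140 comparison held in 10 of 13 alternatives (adjusted p from 0.0135 to 0.0863), and 0 members were called after adding the plate column and 0 after adding the meningeal covariate. Leaving out 1 library gave 0 to 1 members called there and 0 to 1 for females against males. The 21 libraries whose omission ended the S1pr3 call lay in all 6 genotypes (2 WT, 4 Ccdc82+/-, 3 Ccdc82-/-, 4 Q140, 4 Q140 x Ccdc82+/-, 4 Q140 x Ccdc82-/-); the widest shift came without Q140 x Ccdc82-/- male 4 (adjusted p = 0.0831) and female 3 (0.0816). With the title number within sex as a replicate block, S1pr3 was at 0.1532 (adjusted p = 0.0135) and the count of members called stayed at 1. Same-numbered mice correlated at a median r of 0.0151 against -0.00421 for others, 11 of 115 pairs exceeded 0.1, and 17 of 47 mice correlated best with their own number. For the number in the library names, whose meaning the labels do not give, the median r was 0.0376 against 7.91e-05. There 9 of 38 pairs exceeded 0.1, and 14 of 41 mice correlated best with their own number. Taken as a random effect, that number had an estimated correlation of 0.142. The correlations across mice were redone with plate column means or library-name number means removed as well, and with log2(FPKM + 0.1). Over all alternatives other than leaving out 1 library, 13 called values lost their adjusted p under 0.05. These were the S1pr3 call above and correlations of members with each other or with cell type lists.

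Signs turned only in log2 changes that were not called. With the meningeal covariate these were Gfap -0.013 and Cd44 -0.0215 pooled, Gfap -0.0758, Osmr -0.0695, Cd44 -0.0262 and Cp -0.0208 for Q140 against WT, and Gfap -0.0042, Cd44 -0.0264 and Cp -0.0148 for females against males. With the homeostatic astrocyte covariate they were Gfap -3e-04 and Serpina3n 0.0139, and with 2 surrogate variables S1pr3 -0.0228, Serpina3n 0.0245, Osmr -0.0079 and Steap4 0.1654, all for females against males. Steap4 was 0.0331 there with the number in the library name as random effect, and from -0.1286 to 0.0378 with 1 library left out, above 0 without Ccdc82-/- male 2 (0.0378) or Q140 x Ccdc82+/- male 4 (0.0059). The cause was not tested. Timp1, Steap4 and Lcn2 rest on few counts, which limits their precision.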

Other observations

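Markers of other cell types in cortical tissue were read in the pooled Q140 comparison (edgeR, adjusted p under 0.05), in which 0.339% of all genes were called higher, 0.537% lower and 51% were above 0. Of 12 microglia markers 1 rose, Ctss, the protease cathepsin S, at a log2 change of 0.08 (edgeR adjusted p = 0.0369), and 11 were above 0. Of 9 neuron markers 2 fell: Camk2a, a kinase of excitatory synapses, by 0.08 (edgeR adjusted p = 0.000378) and Rbfox3, the neuronal nuclear protein NeuN, by 0.07 (edgeR adjusted p = 0.00701). Of 8 oligodendrocyte markers 1 fell, Ugt8a, an enzyme of myelin lipid synthesis, by 0.13 (edgeR adjusted p = 0.0138).

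No gene was called among 10 endothelial, 10 pericyte and smooth muscle, 12 meningeal fibroblast, 5 tested choroid plexus, 3 tested ependymal, 5 red blood cell, 5 oligodendrocyte precursor or 6 hippocampus markers. Of 9 neutrophil and leukocyte markers only 2 passed the filter on low counts, and 0 were called. The part of these cells in the levels of the reactive astrocyte genes was not tested beyond the correlations and covariates given above.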
